A study of Mus musculus with 81 samples.

Results

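The mouse LTR loci described here are copies of endogenous retroviruses and related LTR retrotransposons that overlap an exon of an annotated gene. They were chosen by position alone: a locus was kept where its coordinates shared at least 1 base with an exon of any transcript in the GENCODE annotation of GRCm38 (mm10). This rule found 24018 of the 970384 LTR loci in the tables (2.48%). Another 320037 loci lay in introns only (33.0%) and 626329 lay outside genes (64.5%). Loci with a coding host, meaning an exon of a protein-coding gene, numbered 11221 (46.7%), and loci with only noncoding hosts numbered 12797 (53.3%).

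The RNA came from testes of E18.5 male fetuses of OG2 mice, a transgenic strain whose EGFP reporter, under Pou5f1 regulatory sequence (promoter and distal enhancer), marks germline cells. F0 dams received 50 nM tributyltin (TBT), an organotin obesogen, or the vehicle DMSO in drinking water, and the sires were not exposed. F1 fetuses were exposed in utero, and F3 fetuses were bred from F1 animals through matings of nonsiblings within each exposure line. Cells were sorted into EGFP-positive germline populations P4 and P5, which differed in side scatter, and the EGFP-negative somatic population P6. The numbers of DMSO and TBT libraries were 5 and 7 for F1 P4, 4 and 7 for F1 P5, 5 and 7 for F1 P6, and 4 and 5 for each of F3 P4, P5 and P6. The labels do not say whether a library came from 1 fetus or from a pool, so p-values measure the spread between these libraries only. F1 germline labels share leading numbers within an exposure, whose meaning is not given. The exposure tests treated these libraries as independent. The cDNA was primed with oligo(dT) and the kit does not mark strand, so reads of a locus cannot be told apart from reads of an overlapping or antisense gene.

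An LTR retrotransposon carries its own promoter and polyadenylation signal in the long terminal repeat (LTR) that flanks its internal, protein-coding part. Copies that lie in or near genes can therefore supply a first exon, a splice site or a transcript end to the host. The mouse genome holds several LTR families, of which ERVK includes the recently active IAP and MMERVK elements, while ERVL and the MaLR elements (MT, ORR and MLT names) are older. Fetal male germ cells are a tissue in which these elements are silenced anew by DNA methylation and by the piRNA pathway, after genome-wide demethylation.

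Some of the exons concerned are shown here because the results below turn on them. Each is the plus or minus strand of GRCm38 as the host transcript reads it, 5′ to 3′, with the annotated exon part inside the LTR locus in capitals and the flanking LTR bases in lower case. In AC126942.1, a long noncoding RNA (lncRNA), an internal exon lies whole inside an RLTR1B-int copy, with the acceptor AG before it and the donor GT after it (chr17:71321487-71321593, plus strand). In the lncRNA Gm26760 the first exon, with the transcript start, lies whole inside an RLTR16C_MM copy (chr15:92344339-92344603, plus strand). In the lncRNA AI838599 an exon begins inside an MMERVK10C-int copy and runs on past its end (chr4:3256697-3256837, plus strand). In Kif24, which encodes a centriolar kinesin, the last exon of a noncoding transcript begins inside an MMERGLN-int copy (chr4:41447588-41447714, minus strand).
AC126942.1: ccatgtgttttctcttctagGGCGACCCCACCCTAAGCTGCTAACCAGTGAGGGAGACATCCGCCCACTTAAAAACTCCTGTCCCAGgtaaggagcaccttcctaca
Gm26760: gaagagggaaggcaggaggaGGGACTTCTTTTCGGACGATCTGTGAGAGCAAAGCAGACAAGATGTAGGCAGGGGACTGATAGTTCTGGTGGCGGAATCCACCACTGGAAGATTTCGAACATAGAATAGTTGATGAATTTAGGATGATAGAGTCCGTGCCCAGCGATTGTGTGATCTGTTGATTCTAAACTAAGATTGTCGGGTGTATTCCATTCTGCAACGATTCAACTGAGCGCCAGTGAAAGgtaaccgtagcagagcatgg
AI838599: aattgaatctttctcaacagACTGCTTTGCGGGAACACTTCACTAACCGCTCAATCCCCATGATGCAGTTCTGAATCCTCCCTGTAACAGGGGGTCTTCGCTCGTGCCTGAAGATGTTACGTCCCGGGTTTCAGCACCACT
Kif24: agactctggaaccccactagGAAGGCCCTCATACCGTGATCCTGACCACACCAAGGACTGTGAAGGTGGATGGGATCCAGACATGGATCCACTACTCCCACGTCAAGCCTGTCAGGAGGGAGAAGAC

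The lncRNA Gm10827 shows the opposite end of a transcript. Its last 120 bases lie inside an MTB_Mm copy (chr10:18237941-18238060, plus strand), with the polyadenylation hexamer AATAAA in capitals.
Gm10827: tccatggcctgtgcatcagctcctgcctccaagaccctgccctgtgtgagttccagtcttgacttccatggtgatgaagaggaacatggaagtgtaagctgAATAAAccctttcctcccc

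Among the 24018 exonic loci, 3742 (15.6%) held an annotated transcript start, 4301 (17.9%) a transcript end and 6421 (26.7%) an internal splice site. Coding and noncoding hosts used LTR sequence differently. A transcript start lay inside 10.6% of loci with a coding host and 20% of loci with a noncoding host, and a splice site inside 20.2% and 32.4%. The locus lay wholly within 1 exon in 63.9% of coding and 41.9% of noncoding cases. By the part of the gene concerned, 894 loci touched coding sequence, 988 a 5′ UTR, 4951 a 3′ UTR and 4388 only a noncoding transcript of a coding gene. Noncoding hosts were lncRNAs for 8701 loci, pseudogenes for 1125 and other annotations for 2971. Of the last group most were TEC models, which are single-exon predictions awaiting experimental support: 2358 exonic loci (9.82%) lay in TEC exons only. The hosts were 13154 genes, of which D10Wsu102e, whose annotated 3′ UTR is itself a stretch of retroviral copies, held the most loci (146).

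Exonic loci had a family composition near that of all loci. ERVL-MaLR made up 44.1% of exonic and 46.8% of all loci, ERVK 32.4% and 33.2%, ERVL 14.5% and 12.2%, and ERV1 8.64% and 7.40%. The internal part of an element made up 12.9% and 13.3%. The median exonic locus was 303 bp long with 149 bases of exon.

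Sequence at the annotated ends was counted with the hexamer AATAAA on the transcript strand in the last 50 bases. Of 1248 ends of coding transcripts inside exonic LTR loci, 48.7% held it, against 38.5% of 50885 ends elsewhere. For lncRNAs the shares were 38.1% of 1552 ends and 29.4% of 13393. Splice sites inside LTR loci had the usual dinucleotides almost as often as others. GT stood at 97.0% of 1543 coding donors in LTR loci and 98.4% of donors elsewhere, and AG at 99.1% of 1290 acceptors and 99.6%. For lncRNAs GT stood at 96.6% and 96.8%, and AG at 99.3% and 99.1%.

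Reads at LTR loci numbered 246520 to 8161548 per library, and 4 of the 62 libraries, all F3 germline, had under 2000000. Values were CPM scaled by the authors, in which 1 read was worth 0.129 to 0.957 CPM. LTR loci inside the genes of 20 germ cell markers, of which 14 held a locus, summed to 9419 to 22408 CPM in F1 P4 and P5 and 35.9 to 74.9 CPM in F1 P6. In F3 the germ cell sum was 1824 to 18727 CPM in P4 and 447 to 13613 CPM in P5. In F3 P6 it was 42.1 to 265 CPM in DMSO and 45 to 50.4 CPM in TBT libraries. Sertoli cell marker loci summed to 2200 to 3030 CPM in F1 P6 and 377 to 1792 CPM in F1 P4 and P5. The labels of P4, P5 and P6 thus went with their markers. In these bulk populations, fewer cells of a type and less RNA per cell cannot be told apart.

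Exonic loci held a small and even share of LTR reads. The median share of LTR-locus reads that fell at exonic loci was 7.10% in F1 P4 (lowest 6.98, highest 7.34, n = 12), 7.34% in F1 P5 (7.09 to 7.52, n = 11) and 8.32% in F1 P6 (7.52 to 8.69, n = 12). In F3 it was 7.81% in P4 (7.13 to 12.8, n = 9), 7.91% in P5 (7.26 to 12.6, n = 9) and 8.14% in P6 (8.05 to 8.22, n = 9). The high F3 values came from the shallow P4 libraries TBT 5 (12.2%, 833449 reads) and TBT 9 (12.8%, 1187234 reads) and from P5 TBT 5 (12.6%, 246520 reads). The other 7 F3 P4 libraries held 7.13 to 8.58% and the other 8 F3 P5 libraries 7.26 to 9.26%. DMSO and TBT libraries overlapped in every population. The 4 tables were normalized separately, so values from F1 and F3, or from germline and P6, stand side by side without a test.

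**Figure D1:**
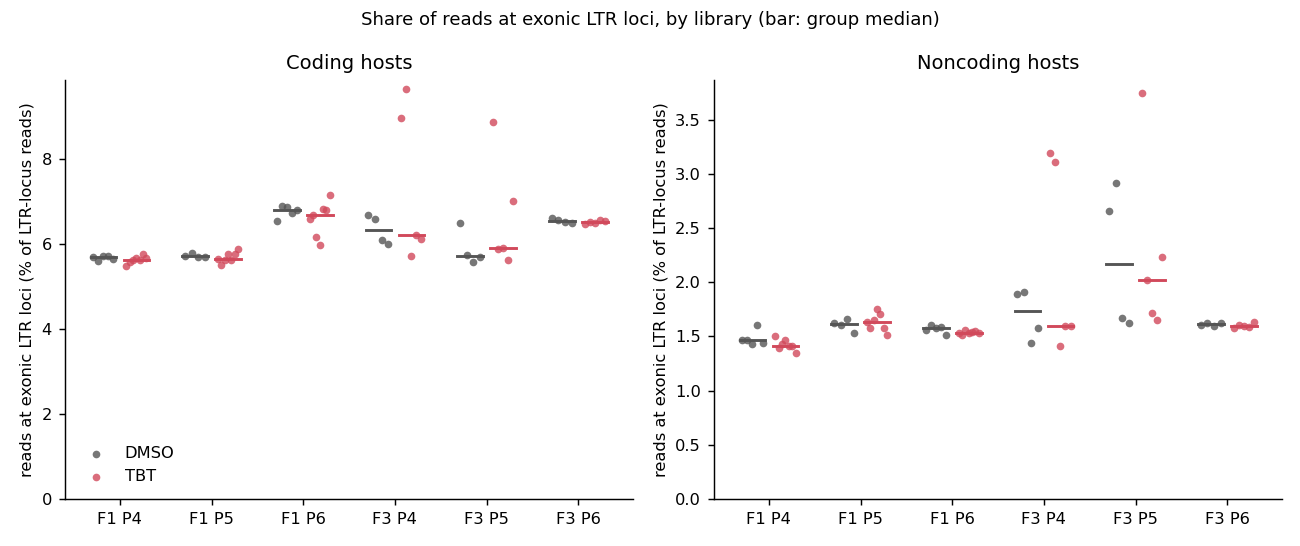
Share of LTR-locus reads at exonic loci (percent, vertical axis) in each library, for loci with coding hosts (left) and noncoding hosts (right). Points are libraries, gray for DMSO and red for TBT, and bars are group medians: coding hosts held 5.67% of reads in F1 P4 and 6.77% in F1 P6 at the median of both exposures, noncoding hosts 1.44% and 1.55%. The highest F3 germline points of each panel are libraries under 2000000 reads. For noncoding hosts F3 P5 DMSO 1 (2.66%, 2017404 reads) and TBT 8 (2.23%, 3549702 reads) also stand above most.

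Read density separated the host classes far more than the populations. In F1 P4, coding-host loci had 15.8 ± 0.872 CPM per kb of locus (SD, n = 12) and noncoding-host loci 2.88 ± 0.102 CPM per kb. Intronic loci had 10.3 ± 0.534 and loci outside genes 0.106 ± 0.0114 CPM per kb. The 12 libraries did not overlap between these 4 kinds of place. The order was the same in F1 P5, with 14.3 ± 1.17 for coding hosts, 2.90 ± 0.167 for noncoding hosts and 0.249 ± 0.0536 outside genes (n = 11). In F1 P6 it was 17.6 ± 1.24, 2.91 ± 0.0947 and 0.106 ± 0.0986 (n = 12), where the last value was raised by TBT 7 and TBT 8, in which 6.79% and 6.95% of reads lay outside genes.

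Within coding hosts the densest class was the noncoding transcripts. Loci in a noncoding exon of a coding gene had 26.3 ± 1.75 CPM per kb in F1 P4, 23.2 ± 2.17 in P5 and 24.2 ± 2.05 in P6. Coding sequence had 15.5 ± 1.06, 13.2 ± 1.24 and 14.4 ± 1.36. 3′ UTR loci had 9.04 ± 0.272 in P4, 8.98 ± 0.506 in P5 and 15.6 ± 0.892 in P6, and 5′ UTR loci 4.73 to 4.94 in the 3 populations. Among noncoding hosts, lncRNA loci had 2.44 ± 0.139, 2.62 ± 0.204 and 2.52 ± 0.0736 CPM per kb.

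A large part of these reads was counted at loci in retained-intron models, which are annotated transcripts that keep an intron of a coding gene. The 2795 loci that were exonic through such models alone, 11.6% of exonic loci, held 35.7 to 38.2% of exonic reads in F1 P4, 34.0 to 36.7% in F1 P5 and 28.7 to 32.3% in F1 P6. In F3 the ranges were 22.3 to 40.4% in P4, 15.6 to 35.6% in P5 and 28.5 to 29.7% in P6. Their density was 36.8 ± 2.42 CPM per kb in F1 P4, above the 10.3 ± 0.534 of loci in introns only. Loci of 1 gene can carry the same value: the 7 tested intronic loci of Zfp35 all had a log2 exposure difference of 0.21 in F1 P4. The same reads may be counted at several loci, which was not tested. Shares and densities here and above are therefore of reads assigned to loci, and may count the same read repeatedly. A stricter transcript set kept only protein-coding and most lncRNA transcript types. It left out retained-intron, nonsense-mediated-decay, processed-transcript, TEC and pseudogene models, among others. Under its exons the exonic share of reads fell to 2.90% in F1 P4, 3.18% in P5 and 4.14% in P6. Reads were also concentrated: 458 loci (1.91%) held 50% of exonic reads in F1 P4, 675 (2.81%) in F1 P5 and 510 (2.12%) in F1 P6.

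Single loci of at least 100 bp were ranked per kb by their level in the F1 DMSO libraries, and the values given are over both exposures. Ywhaz, which encodes a 14-3-3 adaptor protein, carries MER34B-int in its 3′ UTR (chr15:36771942-36772063). This locus had 5396 ± 524 CPM per kb in F1 P4, 3347 ± 236 in P5 and 3595 ± 468 in P6. It ranked among the first 3 coding-host loci in all 3 populations. The other germline places were held by loci in retained-intron exons of Cln3, a lysosomal membrane protein gene (RLTR14, 3770 ± 378 in P4, 4399 ± 347 in P5), and of Dazl, a germ cell RNA-binding protein (ORR1C1, 2443 ± 453 in P4, 1546 ± 177 in P5). In P6 both were low, at 76.3 ± 13.6 and 1.70 ± 2.10 CPM per kb. In P6 the places were taken by 9530068E07Rik (MLT1H-int, 2429 ± 306) and by Gata4, a transcription factor of somatic gonad cells (LTR103b_Mam, 2208 ± 262), which had 70.2 ± 43.7 and 58.3 ± 23.6 in F1 P4.

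Noncoding hosts with high levels were Gm12207 (MT2B, 1488 ± 282 CPM per kb in F1 P4), the pseudogene Gm17737 (MamGypLTR3, 1237 ± 229) and Gm48357 (MT2B, 993 ± 103). Gm17737 had 0.785 ± 1.91 CPM per kb in F1 P6, and Gm12207 and Gm48357 had 566 ± 195 and 266 ± 25.1. The noncoding hosts ranked highest in the DMSO libraries of F1 P6 were A530064N14Rik (MT2C_Mm, 954 ± 126 over both exposures), Gm29480 (MTC, 576 ± 70.5) and Gm48562 (BGLII_B). Gm48562 had 552 ± 72.7 CPM per kb in DMSO and 508 ± 38.5 in TBT libraries of F1 P6, and Gm12207 had 459 ± 78.3 and 641 ± 222, so their order differed between the exposures. Most of these annotations lie inside a coding gene: Gm48357 in Ubqln1, A530064N14Rik in Nedd4, Gm29480 in Gpc1, Gm48562 in Arcn1 and Gm12207 in Skp1a. Reads of the host cannot be told apart from reads of the noncoding gene there. In F3 the same loci had 7749 ± 1840 (P4), 4183 ± 1601 (P5) and 3616 ± 176 CPM per kb (P6) for Ywhaz, 4604 ± 2351, 4318 ± 2776 and 79.9 ± 23.9 for Cln3, and 18.4 ± 20.5, 61.5 ± 60.7 and 2308 ± 186 for Gata4.

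P5 and P4 stood in 1 table per generation and were compared directly, across DMSO and TBT libraries, with limma on log2(CPM + the value of 1 read) and FDR from Benjamini-Hochberg over all LTR loci tested. In F1, 2451 of 6510 tested exonic loci differed: 1282 were higher in P5 (19.7%, against 17% of all 101401 loci tested) and 1169 were lower (18%, against 20.3%). With each library set to a common total, 2117 differed, 1566 higher and 551 lower. That rescaling moved the median over all loci from -0.11 to 0.03, so the split between directions depended on the scaling. In F3, 71 of 6788 differed, 70 higher in P5 (1.03%, against 0.985% of all) and 1 lower (0.0112% of all). The F3 count ran from 23 to 185 as single replicate numbers were left out: 185 without TBT 5, 47 without DMSO 2, 39 without TBT 8, 30 without DMSO 1, 26 without TBT 9, 25 without DMSO 3, 24 without TBT 6 and 23 without TBT 7. Without the libraries under 2000000 reads it was 334. edgeR's likelihood ratio test called 532 of the 6788 (7.84%, against 7.9% of all loci).

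LTR reads outside genes moved with this comparison. They were 2.19% of reads in F1 P4 (1.83 to 2.51) and 5.29% in F1 P5 (3.84 to 7.34) at the median, and 3.22% in F3 P4 and 11.2% in F3 P5. In F3 P5 they reached 31.1% in TBT 5, 27.9% in DMSO 2 and 23.5% in DMSO 1. Their part in the exonic differences was not tested.

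By host class in F1, 284 of 1307 tested 3′ UTR loci were higher in P5 (21.7%) and 152 lower (11.6%), and 270 of 1264 lncRNA loci were higher (21.4%) and 146 lower (11.6%), beside the 17% and 20.3% of all loci. With a common total per library, the shares were 26.6% and 6.33% in 3′ UTRs, 24.3% and 5.48% in lncRNAs, and 20.1% and 10.5% over all loci. In coding sequence 53 of 371 loci were higher (14.3%) and 83 lower (22.4%), but with a common total 69 were higher and 46 lower. Noncoding exons of coding genes were near the share of all loci, with 477 of 2571 higher (18.6%) and 533 lower (20.7%), and with a common total 608 were higher and 275 lower. By element part, 204 of 685 internal-part loci were higher in P5 (29.8%) and 88 lower (12.8%), and with a common total 239 were higher and 50 lower. At the LTRs themselves 1078 of 5825 loci were higher and 1081 lower, and with a common total 1327 and 501. In F3, 31 of 762 internal-part loci (4.07%) and 39 of 6026 LTR loci (0.647%) were higher, beside 0.985% of all loci. Differences of exonic loci ran alongside those of intronic loci in the same host: over 1915 hosts with at least 3 tested intronic loci, Spearman's rho of the 2 was 0.80 in F1, and over 1772 hosts 0.65 in F3. These hosts share libraries and transcripts, and the values are a description across genes. The same reads may also be counted at exonic and intronic loci of 1 host, so part of rho may be set by the counting.

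The 2 generations had no library in common. Of 5641 exonic loci tested in both, 40 were called higher in P5 in both (0.709%, against 0.564% of all 81490 loci) and 1 lower. The 40 lay in 34 hosts. ERVK gave 20 of them, ERVL-MaLR 13, ERV1 7 and ERVL 0, while ERVK made up 29.5% of the 5641, ERVL-MaLR 46.9%, ERV1 6.75% and ERVL 16.5%. Internal parts gave 19, and made up 10.6% of the loci tested. By host, 14 lay in lncRNAs (1114 of the 5641 loci), 13 in 3′ UTRs (1162 loci) and 7 in noncoding exons of coding genes (2277 loci). The median level of the 40 in F1 was 0.701 CPM in P4, 4.53 in P5 and 1.62 in P6, and in F3 0.705, 14.6 and 3.06. The P6 level was at or above the P5 level for 13 of the 40 in F1 and for 10 in F3.

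**Figure D2:**
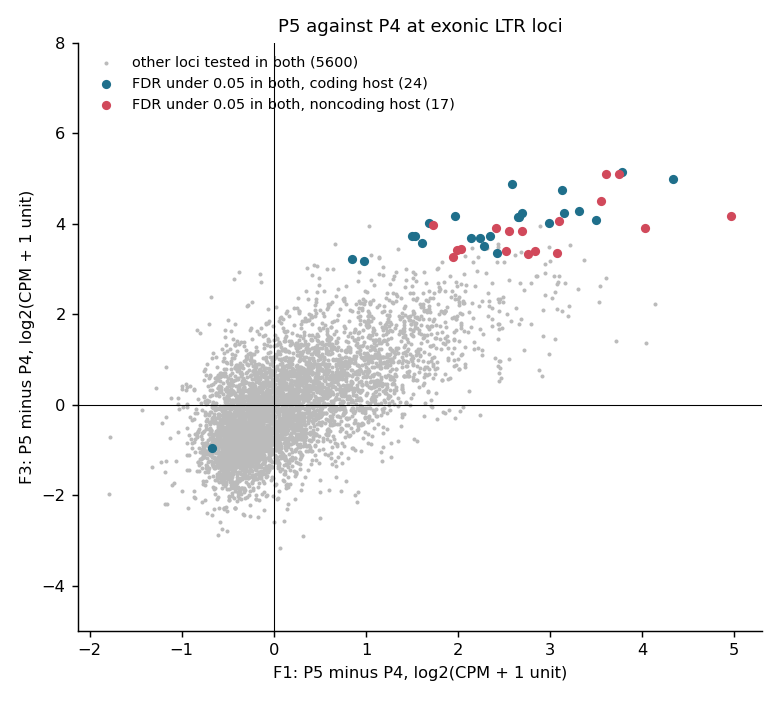
P5 minus P4 on the log2(CPM + 1 read) scale at exonic loci tested in both generations, F1 on the horizontal and F3 on the vertical axis. Gray points are the loci not called in both, and colored points the 41 called in both, of which 40 lie in the upper right quadrant and 1, Ywhaz MER34B-int, in the lower left.

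Of the 6 hosts named for the largest difference in both generations, 5 were lncRNAs. AC126942.1 RLTR1B-int (chr17:71321004-71324166), which holds the spliced exon shown above, had 0 to 6.77 CPM in F1 P4 (median 0) and 4.04 to 20.3 CPM in F1 P5 (median 14.3). It had 0 to 5.90 CPM in F3 P4 (median 0.466) and 0 to 74.0 in F3 P5 (median 15.2). P4 libraries were below 1 CPM except F1 TBT 47-4 and F3 DMSO 3, and in P5 only F3 TBT 5 was at 0. P5 was higher by 4.97 ± 0.42 (log2, SE; limma FDR 3.1e-11) in F1 and 4.18 ± 0.90 (limma FDR 0.013) in F3. The F3 call was lost without TBT 9, DMSO 1 or TBT 7, where the FDR reached 0.066.

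Gm26760 RLTR16C_MM (chr15:92344250-92344839), which holds a transcript start, had 0 to 2.00 CPM in F1 P4 (median 0) and 4.13 to 15.2 in F1 P5 (median 5.72). Its F3 values were 0 to 6.11 in P4 (median 0.663) and 0.957 to 57.1 in P5 (median 13.3). The F1 populations did not overlap. P5 was higher by 4.03 ± 0.39 (limma FDR 7.9e-10) in F1 and 3.91 ± 0.90 (limma FDR 0.022) in F3. The F3 call was lost without any 1 of TBT 6, DMSO 1, DMSO 2, DMSO 3, TBT 7 and TBT 8, where the FDR reached 0.099, and without the filter on low values, at an FDR of 0.063.

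Gm10827 MTB_Mm (chr10:18237702-18238108), which holds the transcript end shown above, had reads in 2 of 12 F1 P4 libraries, at 0.985 and 1.49 CPM. In F1 P5 it had 0.511 to 10.4 CPM (median 4.13). In F3 the values were 0 to 1.63 in P4 and 2.77 to 37.3 in P5 (median 12.6), without overlap. P5 was higher by 3.61 ± 0.44 (limma FDR 9.2e-08) and 5.10 ± 0.78 (limma FDR 0.00061), and both calls held without any 1 replicate number. In P6 it had reads in 1 library of each generation.

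The other lncRNA hosts carry MMERVK10C-int, the internal part of an ERVK element. 6430590A07Rik (chr3:40882118-40886657, transcript end inside, within the interval of Abhd18) had 0 to 2.31 CPM in F1 P4 and 1.68 to 16.0 in F1 P5, and 0 to 2.93 in F3 P4 and 8.44 to 117 in F3 P5. AI838599 (chr4:3255213-3256837) had 0 to 0.915 in F1 P4 and 0.934 to 15.2 in F1 P5, and 0 to 2.80 in F3 P4 and 0 to 43.8 in F3 P5. P5 lay above P4 in every library except for the overlap at 6430590A07Rik in F1 and at AI838599 in F3, where TBT 5 was at 0. The differences at 6430590A07Rik were 3.75 ± 0.41 (limma FDR 9.6e-09) and 5.11 ± 0.85 (0.0017), and those at AI838599 3.55 ± 0.42 (4.7e-08) and 4.50 ± 0.89 (0.0083). In P6, 6430590A07Rik had 1.85 ± 2.30 CPM in F1 and 6.53 ± 2.37 in F3, while AI838599 had 0.277 ± 0.661 and 0.149 ± 0.391.

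The coding host with the largest difference was D10Wsu102e, through a MuRRS-int copy in its 3′ UTR (chr10:83387140-83391831). It had 0 to 4.16 CPM in F1 P4 (median 0) and 2.83 to 28.6 in F1 P5 (median 10), and 0 to 13.5 in F3 P4 and 4.81 to 70.3 in F3 P5. The highest P4 values, in F1 DMSO 43-5 and TBT 47-4 and in F3 TBT 5, overlapped the lowest P5 values. P5 was higher by 4.34 ± 0.47 (limma FDR 8.6e-09) in F1 and 4.99 ± 0.93 (limma FDR 0.005) in F3, while the 3 intronic loci of the gene had medians of 0.00 and -0.24. Reads of such multi-copy elements may be shared with near-identical copies elsewhere, which also holds for the MMERVK10C, RLTR1B and IAPEY4 loci named here.

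Ywhaz MER34B-int was the locus called lower in both. It had 536 to 778 CPM in F1 P4 (median 657) and 356 to 448 in F1 P5 (median 409), without overlap, and 702 to 1491 in F3 P4 and 204 to 917 in F3 P5, with overlap through TBT 8. The log2 differences were -0.67 ± 0.08 (limma FDR 2.6e-08) and -0.97 ± 0.24 (limma FDR 0.036), and those of 6 and 5 intronic loci of Ywhaz had medians of -0.66 and -1.40. The F3 call was lost under 6 of 9 other settings and without any 1 of 7 replicate numbers (TBT 9, TBT 6, DMSO 1, DMSO 2, DMSO 3, DMSO 4 and TBT 7), where the FDR reached 0.20.

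**Figure D3:**
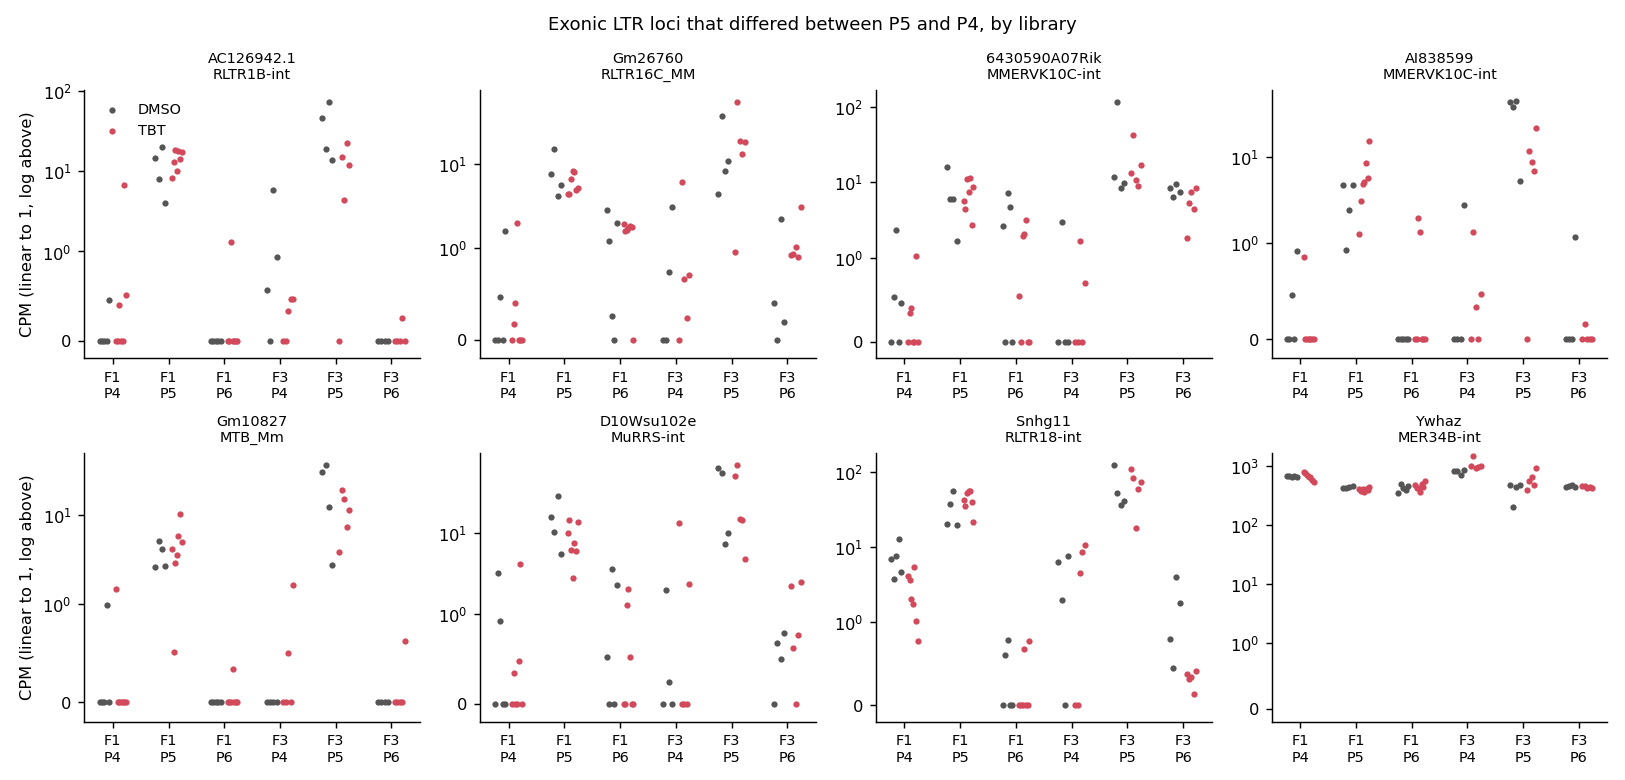
CPM in each library (vertical axis, linear to 1 and log above) at exonic loci that differed between P5 and P4, for the populations of F1 and F3 on the horizontal axis. Gray points are DMSO and red points TBT libraries, and for the noncoding hosts P5 points stand above most P4 points in both generations, for example at 4.04 to 20.3 CPM for AC126942.1 in F1 P5 with a P4 median of 0.

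Snhg11, a small nucleolar RNA host gene that GENCODE annotates with coding transcripts, was read through 9 tested exonic loci. All 9 called members of the list of imprinted, nuclear and X-inactivation noncoding RNAs in F1 were Snhg11 loci, out of 11 tested members, and all 9 were higher in P5, beside 17% of all loci. Its RLTR18-int locus in the 3′ UTR (chr2:158385078-158385640) had 0.768 to 12.8 CPM in F1 P4 (median 3.89) and 19.8 to 56.3 in F1 P5 (median 39.3). In F3 it had 0 to 10.7 in P4 (median 4.48) and 17.9 to 124 in P5 (median 58.4). P4 and P5 did not overlap in either generation. P5 was higher by 3.13 ± 0.25 (limma FDR 7.7e-12) in F1 and 4.74 ± 0.91 (limma FDR 0.0065) in F3. In P6 it had 0.236 ± 0.351 CPM in F1 and 0.949 ± 1.23 in F3. In F3, 3 of 9 tested members of the list were higher, all Snhg11 loci, beside 0.985% of all loci. These loci share 1 host transcript. Rian, an imprinted lncRNA (MTD, 5.65 ± 2.24 CPM in F1 P4 and 6.71 ± 2.27 in P5), did not pass the test at a log2 difference of 0.20 (limma FDR 0.45). Airn and Jpx were read mainly in P6, at 10.9 ± 3.19 and 2.24 ± 0.945 CPM in F1, and at 0.313 and 0.137 CPM in F1 P4.

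Domesticated retroviral genes are host genes whose coding sequence descends from a retroelement. Of 25 listed genes, 8 held 13 exonic loci, and in F1 3 of 8 tested loci were lower in P5 and 0 higher, beside 20.3% and 17% of all loci. With a common total per library 3 were lower, beside 10.5% of all loci under that scaling. Pnma2 (MamGyp-int in coding sequence, chr14:66916122-66917143) had 68.9 to 149 CPM in F1 P4 and 43.4 to 88.3 in P5, with a log2 difference of -0.53 ± 0.12 (limma FDR 0.001). Zcchc12 had 45.5 to 107 and 32.2 to 61.7 CPM (-0.53 ± 0.13, limma FDR 0.0015), and Pnma5 had 31.2 to 75.5 and 25.9 to 49.7 CPM (-0.46 ± 0.11, limma FDR 0.00077). The populations overlapped at all 3 loci. Pnma1 had 24.3 ± 9.44 and 21.8 ± 6.92 CPM and did not pass (limma FDR 0.37). In F3, 0 of 9 tested loci were called by limma (0 at an unadjusted p under 0.05) and 0 by edgeR's likelihood ratio test. In F1 P6, Pnma2 and Zcchc12 had 6.44 ± 2.02 and 3.76 ± 2.81 CPM and Pnma5 0.193 ± 0.525.

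Among retrotransposon silencing genes, 10 of 35 held 23 exonic loci. In F1, 5 of 18 tested (27.8%) were lower in P5 and 0 higher by limma, beside 20.3% and 17% of all loci, and with a common total per library 4 were lower (22.2%, beside 10.5% of all loci under that scaling). The 5 loci lay in 2 genes, Morc1 and Tdrkh, and loci of 1 gene share its transcripts. Morc1, which is needed for transposon repression in male germ cells, carries RMER17A (chr16:48628381-48629120) at a transcript end. It had 31.7 to 69.8 CPM in F1 P4 and 20 to 55.9 in P5, with a log2 difference of -0.60 ± 0.14 (limma FDR 0.001), and its 67 intronic loci had a median of -0.61. Tdrkh, a tudor-domain piRNA factor, had 14.7 ± 3.02 CPM in P4 and 10.9 ± 2.68 in P5 at its RLTR17B_Mm locus (-0.42 ± 0.14, limma FDR 0.02; -0.27 and 0.14 with a common total), while its 1 tested intronic locus gave 0.39. Smchd1 (-0.28 ± 0.15, limma FDR 0.13) and Zfp809, a repressor that binds retroviral primer sites (-0.57 ± 0.24, limma FDR 0.059), did not pass. In F3 0 of 18 were called by limma (2 at an unadjusted p under 0.05, beside 10.5% of all loci), and 1 by edgeR's likelihood ratio test, beside 7.9% of all loci. Zinc finger genes, many of which encode repressors of retroelements, hosted 542 exonic loci in 240 genes. Of 241 tested in F1, 42 were higher in P5 (17.4%, beside 17% of all loci) and 25 lower (10.4%, beside 20.3%). With a common total per library 50 of 243 were higher (20.6%, beside 20.1% of all loci) and 10 lower (4.12%, beside 10.5%). The 4 named for their levels were all among the lower ones, namely Zfp35 (-0.43 ± 0.12, limma FDR 0.0035), Zbtb43 (-0.56 ± 0.15, 0.0039), Zfp467 (-0.55 ± 0.15, 0.0031) and Zfp110 (-0.56 ± 0.12, 0.00046). In F3, 9 of 253 were higher (3.56%, beside 0.985% of all loci) and 0 lower (0.0112% of all). These 9 loci lay in 5 genes, with 3 in the 3′ UTR of Zkscan3, where the loci share a transcript.

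F0 exposure to TBT was compared with DMSO within each population and generation. In the germline limma called 0 exonic loci in 4 comparisons. F1 P4 had 0 of 5863 (0% of all loci; 480 at an unadjusted p under 0.05), F1 P5 0 of 7742 (0.0106% of all; 699 at p under 0.05), F3 P4 0 of 6010 (0% of all; 158) and F3 P5 0 of 7045 (0% of all; 116). The F1 P5 count was 12 without DMSO 48-4, 3 without DMSO 43-4, 1 without DMSO 43-5 and 114 without the filter on low values. edgeR's likelihood ratio test, the test the study used, called 12 in F1 P4 (0.205%, against 0.0939% of all loci), 45 in F1 P5 (34 higher and 11 lower in TBT, 0.581% against 0.317%), 0 in F3 P4 (0.00347% of all) and 105 in F3 P5 (45 higher and 60 lower, 1.49% against 3.15%). Of these calls, DMSO and TBT libraries did not overlap at 4 loci in F1 P4, all lower (0.0682% of exonic loci tested, against 0.0131% of all loci), at 20 in F1 P5 (19 higher and 1 lower; 0.258% against 0.149%) and at 10 in F3 P5 (8 higher and 2 lower; 0.142% against 0.0683%). In P6 limma called 0 of 5520 in F1 (0.00341% of all; 328 at p under 0.05; 3 by the likelihood ratio test, against 0.0523% of all) and 7 of 6486 in F3 (0.108%, against 0.0343% of all). In F3 P6, 5 were higher and 2 lower, and the likelihood ratio test called 30, 23 higher and 7 lower (0.463%, against 0.338% of all). Of the P6 calls by that test, DMSO and TBT libraries did not overlap at 1 locus in F1, which was higher (0.0181% against 0.0114% of all), and at 22 in F3 (16 higher and 6 lower; 0.339% against 0.236% of all). The limma count of 7 ran from 1 to 12 as single libraries were left out: 1 without TBT 6, 2 without TBT 7 or TBT 8, 3 without TBT 5, 11 without DMSO 2 and 12 without DMSO 3. The F1 P6 count was 2 without TBT 11, 1 without DMSO 12 and 3 without the filter.

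The difference between the effects of TBT in P5 and P4 was tested in the germline fits. limma called 0 of 6510 exonic loci in F1 (0.000986% of all; 426 at an unadjusted p under 0.05) and 0 of 6788 in F3 (0% of all; 120). The likelihood ratio test called 9 (0.138%, against 0.0582% of all loci) and 1 (0.0147%, against 0.00714%). No list of hosts had a limma call for exposure in any population. The likelihood ratio test called 1 of 8 tested domesticated gene loci in F1 P4, that of Pnma5, whose groups overlapped (0.66 ± 0.14, limma FDR 0.58; likelihood ratio FDR 0.029), and 1 of 8 in F3 P5. It also called 1 of 12 loci of the noncoding RNA list in F1 P5, beside 0.317% of all loci. Of zinc finger loci it called 1 of 205 in F1 P4 (lower), 6 of 255 in F3 P5 (4 higher and 2 lower) and 2 of 318 in F3 P6 (both higher), beside the 0.0939%, 3.15% and 0.338% of all loci that it called there. TBT is known to activate RXR and PPARγ, which are nuclear receptors. None of the RXR and PPAR genes hosted an exonic locus. Of the 17 nuclear receptor and coregulator genes listed, those that did were Esr1 and Esr2, the estrogen receptor genes, and Thra, described below, was not in that list. Both were too low to test in the germline, and in P6 Esr1 RLTR10-int had 3.50 ± 1.90 CPM in F1 and 3.61 ± 0.886 in F3, and Esr2 ORR1B1 3.05 ± 1.90 and 3.41 ± 1.00.

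The exonic locus of F3 P6 called by every fit was that of Mex3c, which encodes an RNA-binding ubiquitin ligase. MMERVK9C_I-int overlaps coding sequence at a transcript start there (chr18:73573024-73573089). The DMSO-F3 P6 libraries had 7.73, 6.98, 7.19 and 9.26 CPM, and the TBT-F3 P6 libraries 18.4, 20.5, 16.5, 12.9 and 17.0 CPM. All TBT libraries lay above all DMSO libraries. TBT was higher by 1.10 ± 0.16 (log2, SE; limma FDR 0.006), and the call held in 9 of 9 fits without 1 library (FDR up to 0.034). Its 4 intronic loci had a median of 0.29. In F1 P6 the groups overlapped, at 7.81 to 12.7 CPM in DMSO and 6.94 to 15.8 in TBT, with a difference of 0.32 (unadjusted limma p 0.12).

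Mro, a nucleolar protein gene first described in the male gonad, holds ORR1C1 at a transcript end in its 3′ UTR (chr18:73879000-73879190). DMSO libraries had 7.54, 2.93, 0.496 and 7.49 CPM, and TBT libraries 22.8, 16.1, 17.3, 17.9 and 12 CPM. The groups did not overlap, and TBT was higher by 2.34 ± 0.43 (limma FDR 0.042), while the 6 intronic loci of Mro had a median of -0.54. The call was lost without any 1 of TBT 5, TBT 9, TBT 6, DMSO 2, TBT 7 and TBT 8 (FDR up to 0.18) and with a pseudocount of 0.25 reads. In F1 P6 the groups overlapped at 5.98 to 25.7 and 18.7 to 28.6 CPM, with a difference of 0.56 (unadjusted limma p 0.026).

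IAPEY4_I-int, the internal part of an IAP-like ERVK element, gave both a higher and a lower locus. In the lncRNA Gm47015 (chr10:79413253-79416675) all 4 DMSO libraries were at 0 and the TBT libraries had 5.15, 0.62, 2.89, 0.772 and 4.55 CPM. TBT was higher by 3.53 ± 0.65 (limma FDR 0.042). The TBT mean of 2.8 CPM was 17.3 times a floor of 3 reads over the DMSO group (0.161 CPM). This locus had reads in 1 of 12 libraries of F1 P6. In the lncRNA Gm20559 (chr6:3333741-3337110) DMSO libraries had 20, 23.4, 9.92 and 16.5 CPM and TBT libraries 7.17, 5.43, 2.04, 9.13 and 4.97 CPM, without overlap, with a difference of -1.65 ± 0.29 (limma FDR 0.037). The Gm20559 groups overlapped in F1 P6, at -0.75 (unadjusted limma p 0.014). The Gm47015 call was lost without any 1 of TBT 5, TBT 6, DMSO 1, TBT 7 and TBT 8 (FDR up to 0.31), and the Gm20559 call without any 1 of TBT 9, TBT 6, DMSO 1, DMSO 2, DMSO 4 and TBT 8 (FDR up to 0.16). Both were also lost with a pseudocount of 0.25 reads, at an FDR of 0.17 and 0.075.

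Both ORR1F loci of Gm42820, a TEC model inside an intron of Notch2, a receptor of the Notch pathway, were called. The sequences are shown since they lie close together.
Gm42820 ORR1F, chr3:98122373-98122576, plus strand: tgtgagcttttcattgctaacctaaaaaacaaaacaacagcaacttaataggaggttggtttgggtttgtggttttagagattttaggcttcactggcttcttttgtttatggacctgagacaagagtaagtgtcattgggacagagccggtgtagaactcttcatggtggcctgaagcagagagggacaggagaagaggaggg
Gm42820 ORR1F, chr3:98122613-98122802, plus strand: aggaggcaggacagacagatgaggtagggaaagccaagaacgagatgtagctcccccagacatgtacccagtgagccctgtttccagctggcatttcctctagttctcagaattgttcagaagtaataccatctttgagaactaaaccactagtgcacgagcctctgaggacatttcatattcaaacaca

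The first had 3.37, 2.48, 3.22 and 2.56 CPM in DMSO and 8.27, 6.05, 8.83, 6.04 and 7.86 CPM in TBT libraries, and the second was the same in 5 of the 9 libraries. TBT libraries all lay above DMSO libraries, by 1.29 ± 0.22 (limma FDR 0.026) and 1.31 ± 0.22 (limma FDR 0.022). The 19 tested intronic loci of Notch2 moved the same way, with a median of 0.81 (0.18 to 0.97), so reads of Notch2 and of Gm42820 cannot be told apart here. Both calls were lost without any 1 of TBT 5, TBT 6, TBT 7 and TBT 8 (FDR up to 0.15). In F1 P6 the groups overlapped, with differences of 0.11 and 0.33.

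A lower value in TBT-F3 P6 was found for Thra, the gene of thyroid hormone receptor alpha, at an MT2B2 copy that lies whole in an exon of a noncoding transcript.
Thra MT2B2, chr11:98757445-98757526, plus strand: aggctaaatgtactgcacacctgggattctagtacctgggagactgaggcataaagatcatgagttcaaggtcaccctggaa

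DMSO libraries had 36.1, 31.1, 33.2 and 36.4 CPM and TBT libraries 16.9, 24.8, 22.9, 21.7 and 20.1 CPM. The groups did not overlap. The log2 difference was -0.69 ± 0.13 (limma FDR 0.042), and the 1 tested intronic locus of Thra gave -0.71. The call was lost without any 1 of 7 libraries (TBT 5, TBT 6, DMSO 1, DMSO 3, DMSO 4, TBT 7 and TBT 8; FDR up to 0.16) and with a pseudocount of 0.25 reads. In F1 P6 the groups overlapped, at 25.8 to 41.3 CPM in DMSO and 20.9 to 38.6 in TBT (-0.29, unadjusted limma p 0.079). The germ cell marker sum of F3 P6 given above ranged more widely in DMSO than in TBT libraries, the groups overlapped, and its part in these 7 results was not tested.

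**Figure D4:**
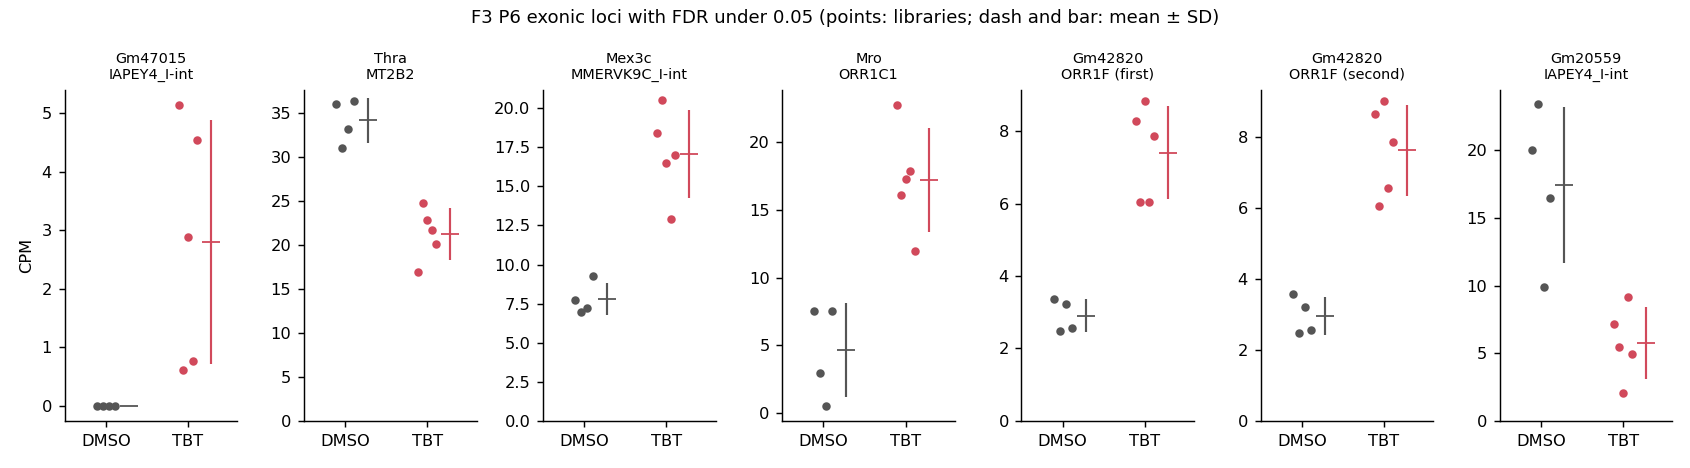
CPM (vertical axis) in the F3 P6 libraries at the exonic loci with a limma FDR under 0.05, DMSO in gray and TBT in red. Points are libraries, dashes with bars are mean ± SD of 4 DMSO and 5 TBT libraries, and in each panel the DMSO and TBT points do not overlap, as for Mex3c at 6.98 to 9.26 and 12.9 to 20.5 CPM.

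Other loci were called by the likelihood ratio test alone, with groups that did not overlap. In TBT-F3 P6 cells the Kif24 MMERGLN-int locus, whose exon is shown above, had 4.04, 2.79, 3.74, 2.06 and 2.07 CPM against 1.39, 0.45, 0.496 and 0.394 in DMSO (limma log2 difference 1.91 ± 0.40, limma FDR 0.11; edgeR likelihood ratio FDR 0.0075). Its 1 tested intronic locus gave -0.37. Rab6b, a neuronal Rab GTPase gene, carries LTR81 in its 3′ UTR, with 1.29, 0.62, 0.849, 1.41 and 2.28 CPM in TBT and 6.35, 5.85, 5.21 and 2.76 in DMSO (-1.86 ± 0.36, limma FDR 0.06; edgeR likelihood ratio FDR 0.00011). Its 37 intronic loci had a median of -1.06.

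In TBT-F1 P4 cells the 2 loci named of the 4 without overlap were lower. Gm8113 IAPEY4_I-int, a predicted coding host, had 1.03 to 5.31 CPM in 5 DMSO libraries (median 2.71) and 0 to 0.521 in 7 TBT libraries (edgeR likelihood ratio FDR 0.00016; limma FDR 0.58). The pseudogene Gm44248 (ERVB2_1A-I_MM-int), which shares its interval with Klra17, had 1.72 to 8.55 CPM and 0 to 1.04 CPM (edgeR likelihood ratio FDR 5.5e-05; limma FDR 0.58). In F1 P5 the same loci overlapped between groups, with limma differences of -0.25 and -0.06. In F1 P6 Gm8113 had 40.9 to 77.8 CPM in DMSO and 35.5 to 70.7 in TBT libraries. Somatic marker loci in F1 P4 DMSO and TBT libraries summed to 593 to 1232 and 377 to 1792 CPM (Sertoli cells), and 145 to 484 and 142 to 280 (Leydig cells). For interstitial, peritubular, endothelial and blood cells the sums were 35.9 to 97.5 and 33.5 to 49.9. Their part in these results was not tested.

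In TBT-F1 P5 cells the lncRNA Gm47096 (RLTR13D3A1) was at 0 in all 4 DMSO libraries and at 0.682 to 3.96 CPM in 7 TBT libraries (edgeR likelihood ratio FDR 4.1e-05, limma FDR 0.08). Its TBT mean of 1.94 CPM was 13.1 times a floor of 3 reads over the DMSO group (0.148 CPM). The pseudogene Gm43089 (ERVB4_2-I_MM-int) was at 0 in the 4 DMSO libraries and at 0.835 to 6.51 CPM in TBT, with a TBT mean 15 times that floor (FDR 0.00012 and 0.096). Gm40617 (LTR48), inside Akap7, was lower, at 1.40 to 3.11 and 0 to 0.682 CPM (FDR 0.0053 and 0.38). In F3 P5, Gm47096 had 6.89, 0, 10.1 and 5.31 CPM in DMSO and 0 to 3.68 in TBT (limma log2 difference -1.46 ± 1.36, FDR 1), and in F1 P6 1.15 to 3.18 in DMSO and 0 to 1.49 in TBT. Gm43089 had 0 to 4.92 and 0 to 5.86 CPM in F3 P5, and Gm40617 was at 0 in DMSO and at 0 to 4.39 in TBT. In TBT-F1 P6 cells the pseudogene Gm17971 (MTEa), inside Coq10b, had 9.53 to 17.3 CPM against 4.42 to 9.16 in DMSO (0.99 ± 0.20; FDR 0.0051 and 0.42), and in F3 P6 its groups overlapped at -0.25. The germ cell marker sum in F1 P6 was 35.9 to 48.1 CPM in DMSO and 50.9 to 74.9 CPM in TBT libraries, and its part in this result was not tested.

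In TBT-F3 P5 cells 2 lower and 2 higher loci are named of the 10 without overlap. D10Wsu102e IAP1-MM_I-int had 32.5, 54.4, 0.553 and 0.462 CPM in DMSO 1 to 4 and 0 in all 5 TBT libraries (edgeR likelihood ratio FDR 0.006; limma FDR 1). DMSO 1 and DMSO 2 are the libraries with 23.5% and 27.9% of reads outside genes. Gatd1 RLTR10C had 18.2, 1.71, 7.88 and 0.923 CPM and 0 in TBT (FDR 0.013 and 1). Gm17518 (RMER5) and Gm27003 (RMER15) were at 0 in the 4 DMSO libraries and highest in TBT 5, at 12.4 and 14.3 CPM, the library with 246520 reads, with 0.982 to 2.40 and 0.246 to 1.76 CPM in the other TBT libraries (likelihood ratio FDR 0.033 and 0.039). The part of depth in these calls was not tested.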

How the data were processed

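RNA was sequenced in 62 libraries of FACS-sorted fetal testis cells. Per the labels and the study's methods, SMARTer oligo(dT) cDNA libraries were read as paired ends, trimmed with Trim Galore, aligned to GRCm38 (mm10) with STAR and counted per LTR locus of RepeatMasker with a modified ERVmap procedure, and counts were normalized by TMM in edgeR. Versions are not given in the sources used here. The deposited signal is a CPM-like value scaled by the authors, in 4 tables normalized separately (germline and P6, F1 and F3). The column sums differ and are larger than CPM allows in 32 of 62 columns, so the values, called CPM here, are not plain CPM as the design assumed. 100% of values were whole multiples (within 0.01 reads) of the value of 1 read, so reads were recovered by division. Another 19 columns of MBD-seq counts in P6 were not used here.

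Exonic loci were found with bedtools 2.31.1 from GENCODE vM21 (minimum overlap of 1 base). Exposure was compared within each population, and P5 with P4 within each germline table, with limma 3.58.1 (trend) in R 4.3.3 on log2(value + 1 read), after dropping loci whose mean was under 5 reads, adjusted by Benjamini-Hochberg over all loci tested. The likelihood ratio test of edgeR 4.0.16 on recovered reads, which is the study's test, was an alternative. Fold changes on this scale understate changes of low loci. The fits were tested on simulated data. No 2 libraries were alike within sampling noise. Coordinates are 1-based. Starts and sequences come from GRCm38.p6.

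The members and lists were chosen with earlier results of these data known. Loci were named by these rules: all limma calls for exposure (up to 3 per direction beyond 6, all 7 in F3 P6 being given); up to 2 per direction called by the likelihood ratio test without overlap between groups; up to 6 per direction called in P5 against P4 in both generations, by the smaller of the 2 changes, 1 per host; the 3 coding and 3 noncoding hosts with the highest CPM per kb in DMSO libraries of each F1 population; and up to 4 hosts per list, by level. Alternatives covered the pseudocount (0.25 and 4 reads), the filter (none, or a mean of at least 20 reads), the test, the scaling, the exon definition, a replicate block, and leaving out each library, each replicate number (P5 against P4) or shallow libraries.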

Additional observations from a re-analysis of the deposited data

Results flagged for a closer look

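Of 80 groups of 4 to 7 libraries examined at the loci that differed between P5 and P4 or by exposure in F3 P6, 22 held 1 library far from the rest by Dixon's criterion. Chance gives this in about 1 of 20 groups of normally distributed values. A group with reads in 1 library alone is always flagged, so the 22 cannot be set against that rate. Most were single P4 libraries with a few reads where the others had none or nearly none. In F1 P4, Gm10827 MTB_Mm stood at 0.985 CPM in DMSO 44-3 and 1.49 in TBT 45-3. D10Wsu102e MuRRS-int stood at 3.20 CPM in DMSO 43-5 and 4.16 in TBT 47-4. Gm26760 RLTR16C_MM stood at 1.6 CPM in DMSO 48-4 and 2.00 in TBT 47-1, and AC126942.1 RLTR1B-int at 0.457 in DMSO 48-4 and 6.77 in TBT 47-4. 6430590A07Rik MMERVK10C-int stood at 2.31 CPM in DMSO 44-1 and 1.04 in TBT 47-4, and AI838599 MMERVK10C-int at 0.853 in TBT 45-3. TBT 47-4 was thus apart at 3 ERV internal-part loci.

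In F3 P4, D10Wsu102e MuRRS-int stood at 1.96 CPM in DMSO 2 and 13.5 in TBT 5, Gm26760 at 6.11 in TBT 9, AC126942.1 at 5.90 in DMSO 3, 6430590A07Rik at 2.93 in DMSO 2 and AI838599 at 2.80 in DMSO 4. Ywhaz MER34B-int stood at 1491 CPM in TBT 9, with the other TBT libraries at 918 to 976. In F3 P5, Ywhaz stood at 204 CPM in DMSO 2 against 439 to 479 in the other DMSO libraries. 6430590A07Rik stood at 117 CPM in DMSO 2, against 8.44 to 11.8, and at 42.5 in TBT 9, against 8.99 to 16.8. AI838599 was low in DMSO 4, at 5.31 CPM against 37.7 to 43.8. TBT 5 and TBT 9 of F3 P4 and DMSO 2 of F3 P5 were among the 4 libraries under 2000000 reads, and the part of depth in these values was not tested.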

How the results depend on the processing

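No named locus changed the sign of its called difference. With a common total per library the median over all loci changed sign for P5 against P4, from -0.11 to 0.03 in F1 and from -0.14 to 0.04 in F3, and for the F1 P4 exposure comparison, from 0.04 to -0.03. Of the alternatives for named loci 314 kept their side of the threshold and 59 did not. For counts and shares 225 were within 1.5 times or 1 SD of the value reported, and 52 were not. By the likelihood ratio test the exposure counts were 12 (F1 P4), 45 (F1 P5), 3 (F1 P6), 105 (F3 P5) and 30 (F3 P6), the population difference in exposure 9 (F1) and 1 (F3), and F3 P5 against P4 532 (332 by quasi-likelihood). Without a filter on low values the counts were 114 (F1 P5), 3 (F1 P6), 13 (F3 P6) and 32 (F3 P5 against P4), and at a mean of at least 20 reads 1535 (F1) and 19 (F3) for P5 against P4. Under the stricter transcript set they were 1046 (F1 P5 against P4) and 4 (F3 P6), with shares of reads of 2.90, 3.18 and 4.14% (F1 P4, P5, P6) and 3.22, 3.63 and 4.12% (F3). With at least 50% of the locus in exons the F3 P5 against P4 count was 43 and the shares 5.52, 5.68 and 6.55% (F1) and 6.07 and 6.39% (F3 P5, P6). A pseudocount of 0.25 reads left 3 of the F3 P6 calls, and the F3 P5 against P4 count was 112 with a common total and 334 without the libraries under 2000000 reads.

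Leaving out 1 library gave 0 to 12 calls in F1 P5 (12 without DMSO 48-4, 3 without DMSO 43-4, 1 without DMSO 43-5), 0 to 2 in F1 P6 (2 without TBT 11, 1 without DMSO 12) and 1 to 12 in F3 P6 (1 without TBT 6, 2 without TBT 7 or TBT 8, 3 without TBT 5, 11 without DMSO 2, 12 without DMSO 3). Leaving out 1 replicate number, with its P4 and P5 libraries where both exist, gave 2037 to 2503 in F1 P5 against P4 and 23 to 185 in F3. The cause of these differences was not tested. The labels do not say that same-numbered P4 and P5 libraries share an animal, and the correlations of their deviations ran from -0.0878 to 0.46 and were not above 0.1 in every pair, so the numbers were not taken as pairs, although 5 of 11 (F1) and 4 of 9 (F3) correlated best with their own number. With the replicate block the F3 count was 175 and the F1 count 2901. A common total moved the median over all loci from -0.69 to -0.46 in the F3 P4 and from 0.15 to 0.00 in the F3 P5 exposure comparison, and from 0.73 to 0.40 in the F3 population difference. Depth limits the low loci: 1 read was worth up to 0.957 CPM in F3 P5 TBT 5.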
